A study of Mus musculus with 33 samples.

Results

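NF-κB pathway subunits and feedback regulators were examined as a set of 10 genes, taken by name from the 41565 named entries of the expression table: *Tnfrsf1a*, *Ikbkb*, *Nfkb1*, *Rela*, *Nfkb2*, *Relb*, *Nfkbia*, *Nfkbie*, *Nfkbiz* and *Tnfaip3*. They were picked with earlier results of these data known, and 10 of 10 passed the filter on low values in both regions. Bulk RNA-seq libraries came from 2 hypothalamic regions of WT C57BL/6 female mice, the posterior hypothalamus (PH) and the preoptic area (POA). Intact mice were taken in diestrus (4 PH and 5 POA libraries), and adult females ovariectomized at 3–4 months of age were taken 14 days (6 and 6) or 4 months (6 and 6) after ovariectomy (OVX). The titles call the intact group sham. Mice 4 months after OVX were also older, so that age and time after OVX cannot be told apart. In bulk tissue, fewer cells of a type and less RNA per cell cannot be told apart either. The labels do not say which libraries came from the same animal, and *P* values measure the spread between these libraries.

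NF-κB is a family of transcription factors that act as dimers and are held in the cytoplasm by inhibitors of the IκB family. In the canonical branch, receptors such as that for TNF activate the IκB kinase complex, which marks IκB for degradation and releases dimers of p65 and p50. In the noncanonical branch, p100 is processed to p52, which pairs with RelB. Released dimers induce genes for their own inhibitors, among them IκBα and A20, and this feedback ends the signal. In the brain the pathway is best known from microglia, astrocytes and endothelial cells exposed to cytokines. Much of its control lies in protein degradation and localization, which RNA levels do not measure.

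The promoters are shown because several of these genes are themselves targets of the pathway. RefSeq promoter sequences (GRCm38.p6) were at hand for 6 of the 10 genes. The 300 bases around each start, 250 before it and 50 after it, were searched on both strands for the κB consensus, a motif of 10 bases. It matched in 6 of the 9 promoters of these genes, and in 1480 of all 32851 promoters of the same length (4.51%). By gene, it matched in 4 of 6. Some promoters are further starts of the same gene, and a match of *Nfkb2* lies where promoters overlap and is counted in each. The genes were not picked at random, and the shares were not tested. The 250 bases before the start are printed 5′ to 3′ for *Nfkbia* (chr12:55492648-55492897, minus strand), *Tnfaip3* (chr10:19015411-19015660, minus strand), *Nfkbie* (chr17:45555450-45555699, plus strand) and *Nfkb2* (chr19:46304487-46304736, plus strand), the 4 genes with a match (the first start listed for *Tnfaip3* and *Nfkb2*), and for *Tnfrsf1a* (chr6:125349473-125349722, plus strand), which had none. Capitals mark matches, and the first capital run of *Nfkb2* holds a pair of overlapping ones.
Nfkbia: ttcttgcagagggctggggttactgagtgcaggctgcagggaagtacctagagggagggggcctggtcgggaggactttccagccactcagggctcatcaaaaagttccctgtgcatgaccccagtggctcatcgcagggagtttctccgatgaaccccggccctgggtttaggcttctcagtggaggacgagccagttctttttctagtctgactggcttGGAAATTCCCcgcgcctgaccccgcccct
Tnfaip3: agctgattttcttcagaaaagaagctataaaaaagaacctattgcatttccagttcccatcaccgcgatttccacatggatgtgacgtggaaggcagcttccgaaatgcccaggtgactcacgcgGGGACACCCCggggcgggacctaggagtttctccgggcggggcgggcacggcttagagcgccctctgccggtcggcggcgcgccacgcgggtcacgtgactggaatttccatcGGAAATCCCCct
Nfkbie: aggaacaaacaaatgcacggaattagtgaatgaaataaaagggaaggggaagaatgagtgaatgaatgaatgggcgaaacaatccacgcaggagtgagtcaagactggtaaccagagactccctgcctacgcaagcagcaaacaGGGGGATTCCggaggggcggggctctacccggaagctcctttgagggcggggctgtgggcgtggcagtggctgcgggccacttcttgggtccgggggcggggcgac
Nfkb2: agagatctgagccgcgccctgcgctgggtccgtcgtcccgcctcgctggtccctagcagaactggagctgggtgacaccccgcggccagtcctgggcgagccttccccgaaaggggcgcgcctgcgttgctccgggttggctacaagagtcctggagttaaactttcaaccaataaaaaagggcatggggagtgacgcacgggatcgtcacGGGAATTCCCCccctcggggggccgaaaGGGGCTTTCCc
Tnfrsf1a: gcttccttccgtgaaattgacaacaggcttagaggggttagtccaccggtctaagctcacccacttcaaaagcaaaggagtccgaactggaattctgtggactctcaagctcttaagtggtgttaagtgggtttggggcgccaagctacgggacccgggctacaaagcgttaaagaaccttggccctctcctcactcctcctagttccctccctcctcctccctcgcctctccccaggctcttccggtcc

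The match of *Nfkbia* began 29 bases before the start. In *Tnfaip3* matches began 125 and 12 bases before it, in *Nfkbie* 106 bases before it, and in *Nfkb2* 39, 38 and 11 bases before it. The promoter of *Rela* held none. A match describes the letters only.

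Deposited values were normalized expression on a linear scale with no stated unit, and they are called normalized expression here. They are compared within a gene and a region only. The sum over named entries differed by up to 1.64-fold between libraries, but these sums are not read totals and the sequencing depth is unknown. Each region held 2 batches with 2 or 3 libraries of every group in each. Comparisons were fitted with limma on log2 values of every gene, with 1 surrogate variable as covariate (SV1), and adjusted *P* values cover all genes tested (Benjamini-Hochberg). The exact permutation tests given for 4 of the genes (24 two-sided tests) compare mean log2 values without SV1. These 4 are the genes with an unadjusted *P* under 0.05 in some limma comparison, and the permutation *P* values are not adjusted. One library, PH 14 days after OVX replicate 5, stood apart with an SV1 of 0.785 against at most 0.194 in the other PH libraries. It was the lowest of 16 PH libraries for 6 of the 10 genes (*Nfkb1*, *Nfkb2*, *Relb*, *Nfkbia*, *Tnfrsf1a* and *Ikbkb*) and the highest for *Tnfaip3* and *Rela*. In the POA, SV1 separated the batches. It did so in the PH as well apart from that replicate 5, with batch 1 at -0.02 or above and the rest of batch 2 at -0.16 or below.

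None of the 10 genes passed an adjusted *P* of 0.05 in any of the 8 comparisons, 3 between groups in each region and 2 between the changes of the regions. Against intact mice, limma called 0% of all PH genes and 0.00468% of all POA genes at 14 days, and 0.0318% and 0.0936% at 4 months. Between 4 months and 14 days it called 0.00909% in the PH and 0.0281% in the POA. For the PH change minus the POA change it called 0.00452% at 14 days and 0.00903% at 4 months. At an unadjusted *P* of 0.05, 0 genes of the set differed from intact mice at 14 days, where 3.04% of all PH genes and 6.14% of all POA genes did so. At 4 months, 1 of 10 was higher in the PH (*Tnfrsf1a*) and 2 of 10 in the POA (*Nfkbiz* and *Tnfaip3*), and none was lower. Between 4 months and 14 days, 0 genes of the set differed at this threshold in the PH (4.09% of all genes), and *Nfkbia* and *Tnfaip3* were higher in the POA (2.47% of all genes higher). Between the changes of the regions, 0 did so at 14 days (3.01% of all genes) or at 4 months (4.08%). Among all genes compared with intact mice, 2.95% were higher at this threshold in the PH (6.07% in either direction), and 4.1% in the POA (8.5% in either direction). The 10 genes had a median log2 fold change at 4 months of -0.00 (PH) and 0.06 (POA), beside -0.01 over all genes in both. Across the 10 genes, the 95% confidence intervals of the log2 fold change lay within -0.61 to 0.40 (PH) and -0.41 to 0.45 (POA) at 14 days. At 4 months, they lay within -0.49 to 0.51 (PH) and -0.27 to 0.59 (POA).

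**Figure D1:**
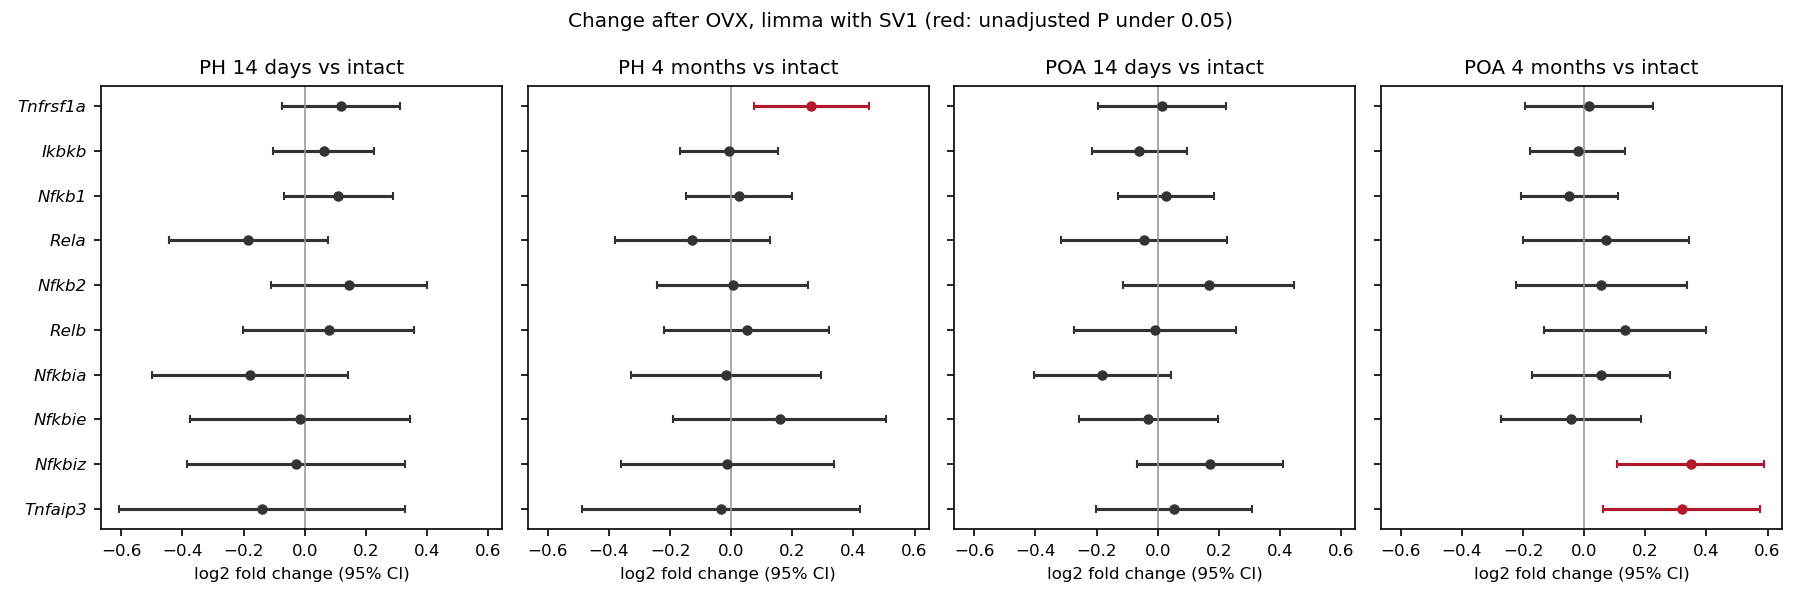
Log2 fold change against intact mice with 95% confidence interval for each of the 10 genes, in 4 panels, 1 for each region and time after OVX, with unadjusted *P* under 0.05 in red. *Tnfrsf1a* in the PH and *Nfkbiz* and *Tnfaip3* in the POA stand apart from 0 at 4 months, at 0.26, 0.35 and 0.32, and no gene does at 14 days.

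*Tnfrsf1a* (chr6:125325566-125339632, plus strand, GRCm39) encodes the main receptor for TNF. In the PH of intact mice its normalized expression was 456, 445, 549 and 510. It was between 398 and 613 (median 488) at 14 days, and between 575 and 656 (median 582) at 4 months. Every 4-month library lay above every intact library, while the 14-day libraries spanned both groups. It was the only gene of the set whose groups did not overlap in this comparison, a pattern met by 0.555% of all genes. At 4 months its log2 fold change was 0.26 ± 0.09 (SE; 95% confidence interval 0.07 to 0.45; adjusted *P* = 0.638, limma). An exact permutation test gave *P* = 0.00952, which is as low as 6 against 4 libraries allow. This value follows from the lack of overlap and adds nothing to it. The difference was 0.36 within batch 1 and 0.21 within batch 2. Against the 14-day libraries, the difference in mean log2 value was 0.25 (exact permutation *P* = 0.0455), and with SV1 it was 0.14 (adjusted *P* = 1.00, limma).

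In the POA, *Tnfrsf1a* was 621, 485, 541, 576 and 594 in intact mice, between 443 and 732 (median 524) at 14 days and between 463 and 625 (median 550) at 4 months. The groups overlapped throughout, and the fold change at 4 months was 0.01 on the log2 scale (adjusted *P* = 0.982, limma; exact permutation *P* = 0.749). The PH change minus the POA change was 0.25 (adjusted *P* = 1.00, limma), so that a difference between regions was not shown. Summed levels of 13 microglia markers, all present, were 17444 to 21788 in the PH at 4 months and 16167 to 17282 in intact mice. Those of 12 endothelial markers were 16668 to 22020 and 14795 to 17237. Those of 7 red cell markers were 14339 to 41170 and 9944 to 12988, with no overlap, and those of 9 mural markers 8227 to 12350 and 8657 to 9442. Fold changes were above 0 for 13 of 13 microglia, 9 of 12 endothelial, 9 of 9 mural and 6 of 7 red cell markers, with medians of 0.23, 0.24, 0.23 and 1.36 on the log2 scale. Of these lists, limma called 1 red cell marker (adjusted *P* = 0.0301). In the same comparison, fold changes were below 0 for 6 of 7 border macrophage, 7 of 10 neuron, 7 of 10 oligodendrocyte and 6 of 7 choroid plexus markers. They were also below 0 for 5 of 5 tested pituitary, 5 of 10 astrocyte and 1 of 5 tested leukocyte markers. Over all PH genes tested, 47.2% of fold changes were above 0. The part of any of these lists in the difference of *Tnfrsf1a* was not tested. *Plekhg6*, annotated on the opposite strand and overlapping *Tnfrsf1a*, had a log2 fold change of -0.13 (adjusted *P* = 0.950, limma) in the PH at 4 months.

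*Ikbkb* (chr8:23148709-23196607, minus strand) encodes IKKβ, the catalytic kinase of the canonical branch. In the PH its normalized expression was 1368 to 1488 in intact mice, 1185 to 1674 at 14 days and 1348 to 1632 at 4 months. In the POA it was 1404 to 1507, 1240 to 1602 and 1246 to 1723. Intact libraries lay within the range of the OVX groups in both regions. At 4 months the log2 fold change was -0.01 for the PH (95% confidence interval 0.890-fold to 1.11-fold) and -0.02 for the POA (0.884-fold to 1.10-fold).

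**Figure D2:**
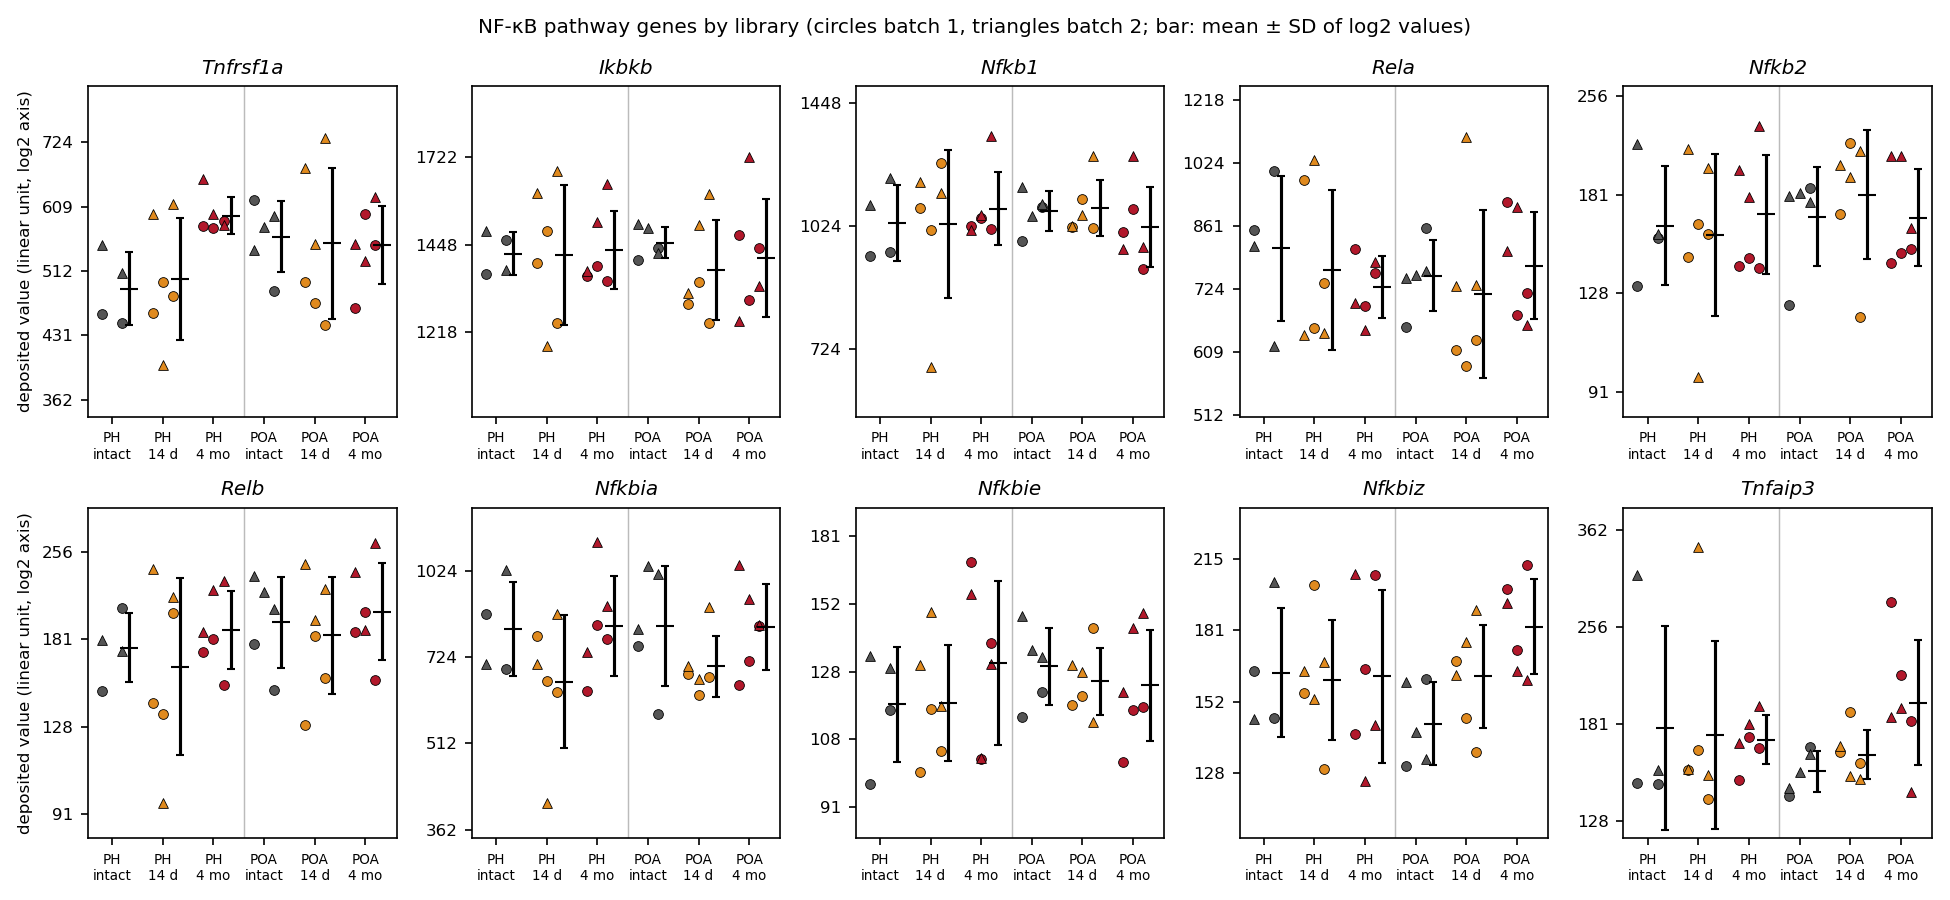
Normalized expression (log scale) of the 10 genes in every library, by region and group, with batches marked by symbol and a bar for the mean ± SD of the log2 values of each group. The 6 PH libraries taken 4 months after OVX lie above all 4 intact ones for *Tnfrsf1a*, and 5 of 6 POA libraries do so for *Nfkbiz* and *Tnfaip3*.

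For the subunits of the canonical dimer, the groups overlapped in both regions. *Nfkb1* (chr3:135290264-135397742, minus strand), which encodes p105 and p50, was 939 to 1171 in intact PH, 687 to 1221 at 14 days and 1013 to 1321 at 4 months. POA levels were 980 to 1144, 1017 to 1248 and 905 to 1247. Its log2 fold change at 4 months was 0.02 for the PH (adjusted *P* = 0.979) and -0.05 for the POA (adjusted *P* = 0.897, limma). *Rela* (chr19:5687493-5698161, plus strand), which encodes p65, was 620 to 1001 in intact PH, 638 to 1033 at 14 days and 647 to 809 at 4 months. POA levels were 652 to 858, 586 to 1100 and 657 to 919. The largest fold change of *Rela* by size was at 14 days in the PH, at -0.18 (adjusted *P* = 1.00, limma), and the groups overlapped.

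Subunits of the noncanonical branch overlapped between groups as well. *Nfkb2* (chr19:46292759-46303812, plus strand), which encodes p100 and p52, was 131 to 216 in intact PH, 95.2 to 213 at 14 days and 140 to 231 at 4 months. In the POA it was 123 to 185, 118 to 217 and 142 to 207. Its log2 fold change at 14 days was 0.14 for the PH (adjusted *P* = 1.00) and 0.17 for the POA (adjusted *P* = 0.879, limma), where 4 of 6 libraries lay above the highest intact one and 1 below the lowest. *Relb* (chr7:19339017-19363425, minus strand), which encodes RelB, was 147 to 205 in intact PH, 94.6 to 239 at 14 days and 151 to 228 at 4 months. POA levels were 148 to 232, 129 to 243 and 154 to 265. Its log2 fold change at 4 months was 0.05 for the PH and 0.13 for the POA (adjusted *P* = 0.807, limma).

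Part of the set differed between batches in the POA. With the groups in the model, *Relb* was 0.43 higher on the log2 scale in batch 2 than in batch 1 (mean 223 against 167, adjusted *P* = 0.00131, limma). *Nfkbia* was 0.34 higher (876 against 685, adjusted *P* = 0.00322) and *Nfkb2* 0.32 higher (191 against 156, adjusted *P* = 0.0264). These 3 of 10 calls stand beside a background of 39.7% of all POA genes. In the PH, 0 of 10 genes were called between batches, beside 1.28% of all genes. That fit kept PH 14 days after OVX replicate 5, a batch 2 library with an outlying SV1, and was not run without it.

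Pairs of genes whose proteins act together were compared across libraries on the log2 scale, 3 pairs in each region and 6 relations in all. *Nfkb2* and *Relb* were correlated in the PH (Pearson's r = 0.81, permutation *P* = 0.00018, adjusted *P* = 0.00108; Spearman's rho = 0.71, permutation *P* = 0.00300, adjusted *P* = 0.018; n = 16). Without the 2 libraries farthest from the median of *Nfkb2*, r was 0.61. Within batches, r was 0.24 in batch 1 and 0.92 in batch 2 (8 libraries each). Batch 2 holds PH 14 days after OVX replicate 5, the lowest PH library for both genes (95.2 and 94.6). The value within batch 2 was not computed without it. In the POA, r was 0.36 (permutation *P* = 0.152, adjusted *P* = 0.228; rho = 0.33, permutation *P* = 0.197, adjusted *P* = 0.394; n = 17) and r was below 0 within both batches, at -0.11 and -0.38. *Nfkb1* and *Rela* had r = -0.56 across PH libraries (permutation *P* = 0.0187, adjusted *P* = 0.0562; rho = -0.50, permutation *P* = 0.0494, adjusted *P* = 0.148) and 0.20 across POA libraries (permutation *P* = 0.441; rho = 0.19). Without the 2 libraries farthest from the median of *Nfkb1*, r was -0.49 in the PH. *Nfkbia* and *Tnfaip3* had r = -0.45 in the PH (permutation *P* = 0.0972; rho = 0.13), which rested on the 2 libraries farthest from the median of *Nfkbia*, since r was -0.00 without them, and -0.22 in the POA (permutation *P* = 0.413; rho = -0.20). PH 14 days after OVX replicate 5 was at an extreme of the PH libraries for every gene of these pairs. It was the lowest for *Nfkb1*, *Nfkb2*, *Relb* and *Nfkbia* and the highest for *Rela* and *Tnfaip3*.

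**Figure D3:**
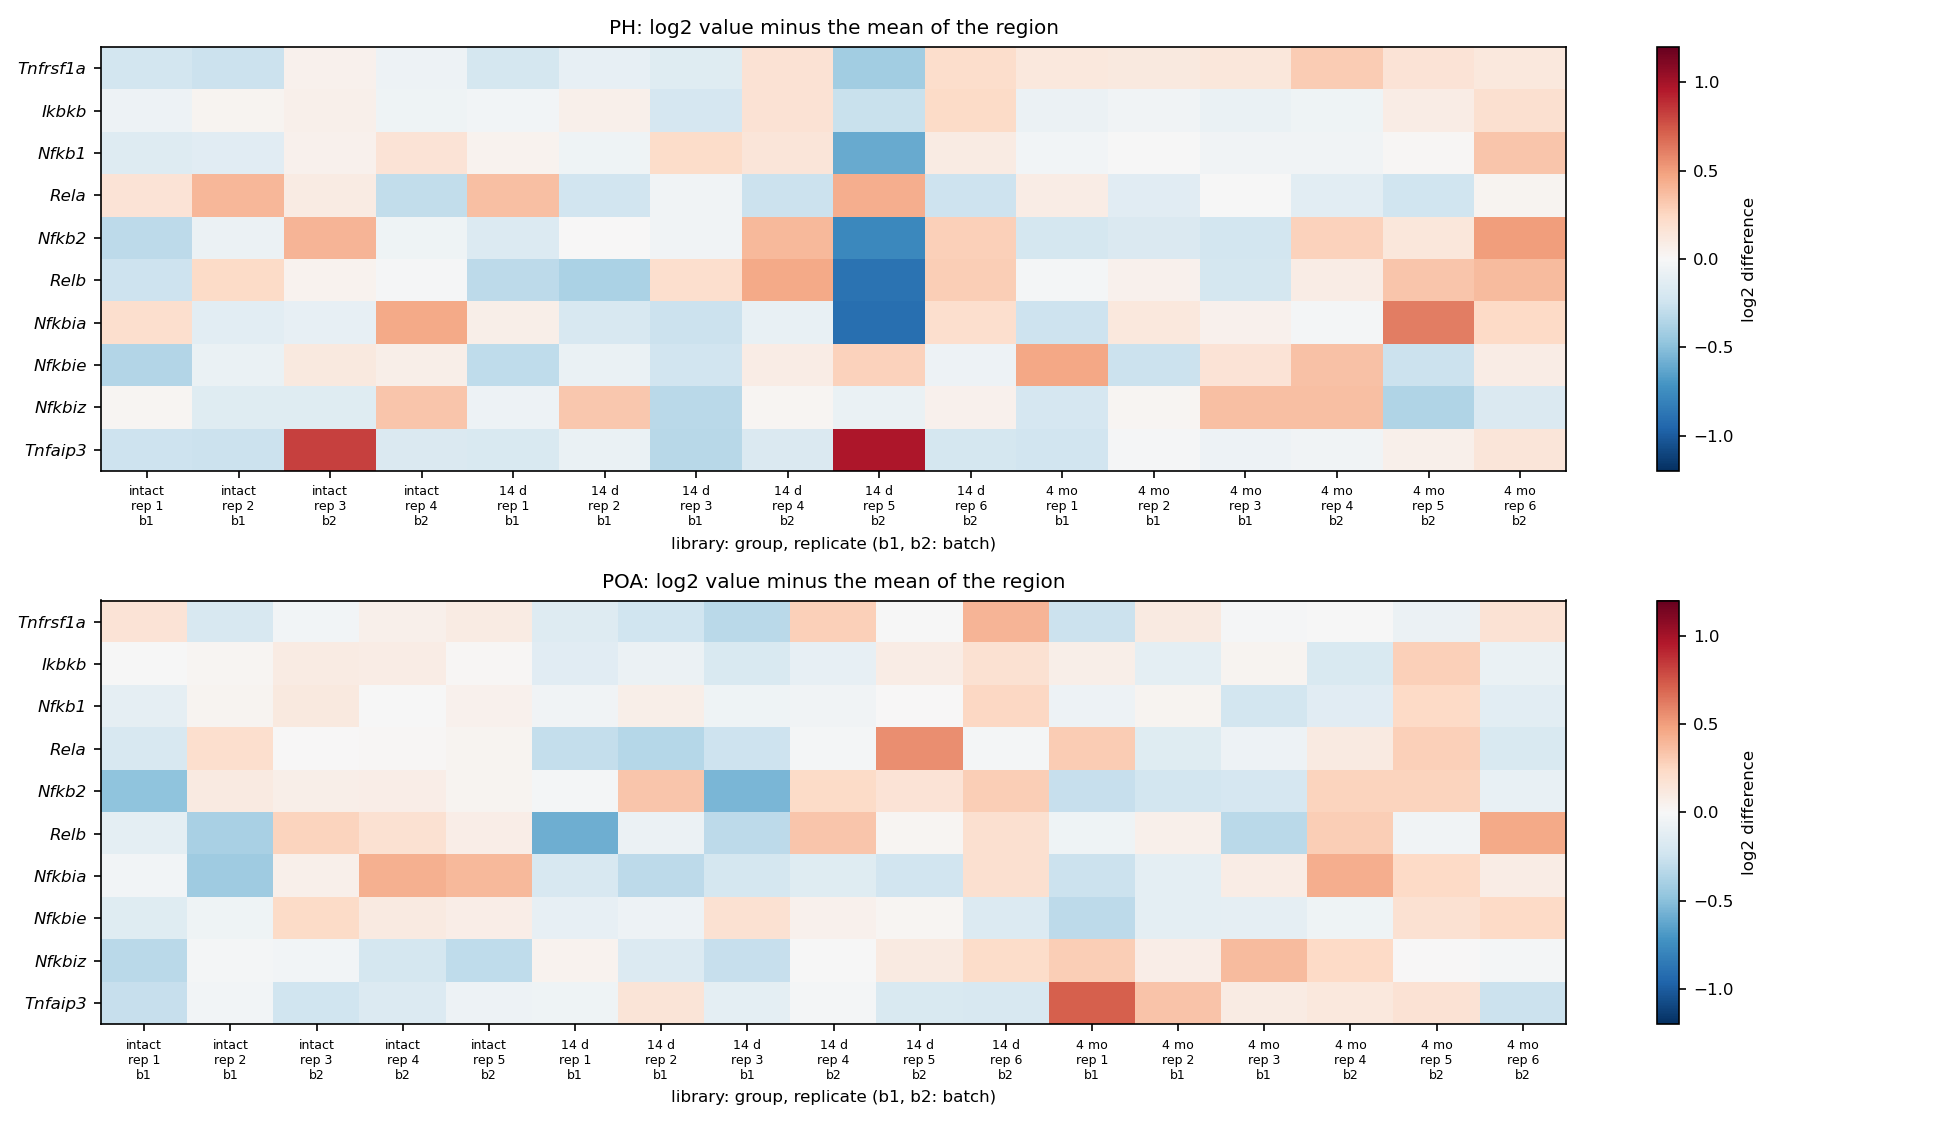
Log2 normalized expression of the 10 genes (rows) in each library (columns) minus the gene's mean over the region, for the PH and the POA. PH 14 days after OVX replicate 5 is the lowest library for 6 genes and the highest for *Tnfaip3* and *Rela*.

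*Nfkbia* (chr12:55535332-55539432, minus strand) encodes IκBα, the inhibitor that NF-κB dimers induce first and that carries them back out of the nucleus. In the POA its normalized expression was 755, 577, 809, 1043 and 1010 in intact mice. At 14 days it was 676, 621, 669, 697, 662 and 884 (median 673), and at 4 months 647 to 1048 (median 822). The 14-day libraries sat within the lower part of the intact range except replicate 6, which lay higher, and every group overlapped every other. The log2 fold change of *Nfkbia* between 4 months and 14 days was 0.24 (95% confidence interval 0.02 to 0.45; adjusted *P* = 0.964, limma; exact permutation *P* = 0.108). The difference was 0.14 within batch 1 and 0.32 within batch 2, and without SV1 it was 0.23 and no longer under the unadjusted threshold. Against intact mice, the change was -0.18 (adjusted *P* = 0.830) after 14 days and 0.06 after 4 months (adjusted *P* = 0.920, limma).

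In the PH, *Nfkbia* was 861, 689, 704 and 1027 in intact mice, 402 to 861 (median 681) at 14 days and 632 to 1147 (median 800) at 4 months. Of the 14-day libraries, 3 of 6 lay below the lowest intact one, among them replicate 5, the library with the outlying SV1. Its log2 fold change was -0.18 (adjusted *P* = 1.00) after 14 days and -0.02 after 4 months (adjusted *P* = 0.993, limma). Its range over the PH, 2.85-fold from the lowest to the highest library, was the widest of the 10 genes in either region. The narrowest was 1.38-fold, for *Nfkb1* in the POA. The lower end of the *Nfkbia* range was set by that replicate 5 (402), and the next lowest PH library was at 629. Ranges were not computed without replicate 5.

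The genes most like *Nfkbia* over all 33 libraries, by Pearson's r on log2 values centered in each region among 15888 genes, were *Ddit4* (r = 0.87), *Gadd45g* (0.79), *Necap2* (0.77), *Arl4d* (0.77) and *Tob2* (0.77). For *Ddit4*, an mTORC1 inhibitor induced by stress and glucocorticoids, r was 0.85 (PH) and 0.92 (POA), and 0.83 over all libraries without PH 14 days after OVX replicate 5. Within batches it was 0.40 and 0.93 (PH) and 0.72 and 0.95 (POA). These points share library and batch, and the genes were picked as the highest of many. The other 9 genes of the set had r between -0.37 (*Tnfaip3*) and 0.55 (*Relb*) with *Nfkbia*. Summed levels of 12 glucocorticoid-responsive genes, *Ddit4* among them, were 17110 to 26929 in the POA of intact mice, 16596 to 20204 at 14 days and 16535 to 23433 at 4 months. Those of 17 immediate early genes were 14045 to 23940, 13349 to 21123 and 15647 to 23598. Between 14 days and 4 months in the POA, *Nfkbia* was higher at the unadjusted threshold only. There, 14 of the 17 immediate early genes had fold changes above 0 (median 0.48 on the log2 scale), beside 48.9% of all POA genes. At an unadjusted *P* of 0.05, 9 were higher and 2 lower, and 3 were called (smallest adjusted *P* = 0.000592, limma). Over all POA genes, 2.47% were higher at that threshold. Against intact mice at 4 months in the POA, 4 were higher and 4 lower at this unadjusted threshold. Of these, 3 were called, all of them higher (smallest adjusted *P* = 0.00192, limma). Among the glucocorticoid-responsive genes in that comparison, 1 was higher and 1 lower at the unadjusted threshold, and the higher one was called (adjusted *P* = 0.0428, limma). Of the 12 glucocorticoid-responsive genes, 10 had fold changes above 0 between 14 days and 4 months (median 0.16). At the unadjusted threshold 5 were higher and 1 lower, and 1 was called (adjusted *P* = 0.0323, limma). The 10 and the 5 include *Ddit4* (0.37, adjusted *P* = 0.630, limma), which was picked for its likeness to *Nfkbia*, so its rise is not separate evidence. In that comparison the median of the 5 tested pituitary markers was -1.91, with 5 of 5 below 0 and none called. The part of these lists in the values of *Nfkbia* was not tested.

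**Figure D4:**
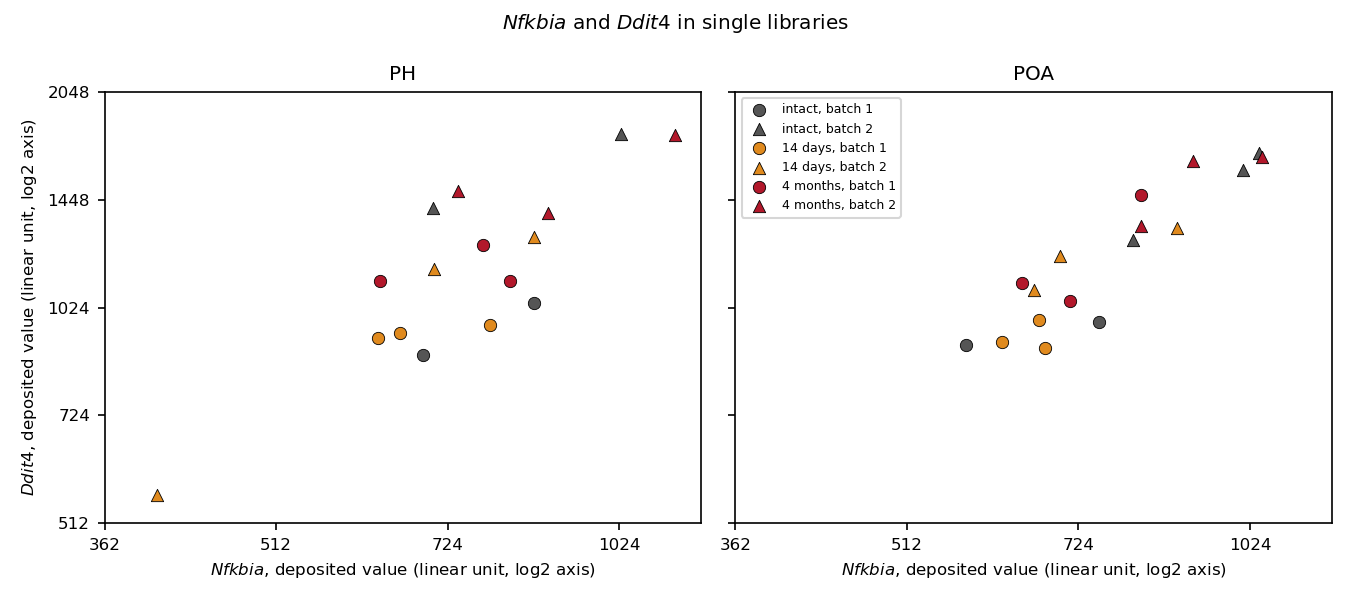
Normalized expression of *Nfkbia* against that of *Ddit4* (log scales), 1 point per library, for the PH and the POA, colored by group with circles for batch 1 and triangles for batch 2. The points follow one rising band with r = 0.85 (PH) and 0.92 (POA), and the groups are mixed along it.

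*Nfkbie* (chr17:45866585-45874661, plus strand) encodes IκBε, an inhibitor that is induced later. In the PH its normalized expression was 96.1 to 133 in intact mice, 99.1 to 149 at 14 days and 102 to 169 at 4 months, where 3 of 6 libraries lay above the highest intact one. In the POA it was 114 to 147, 113 to 143 and 102 to 149. The change at 4 months was 0.16 on the log2 scale for the PH (adjusted *P* = 0.927) and -0.04 for the POA (adjusted *P* = 0.943, limma).

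*Nfkbiz* (chr16:55631738-55659262, minus strand) encodes IκBζ, a nuclear coactivator of secondary NF-κB targets. In the POA its normalized expression was 130, 161, 160, 141 and 133 in intact mice, 135 to 190 (median 165) at 14 days and 160 to 212 (median 183) at 4 months. Of the 4-month libraries, 5 of 6 lay above the highest intact one, and of the 14-day libraries 4 of 6. At 4 months the log2 fold change of *Nfkbiz* was 0.35 ± 0.11 (SE; 95% confidence interval 0.11 to 0.59, a fold of 1.27; adjusted *P* = 0.361, limma; exact permutation *P* = 0.00866). It was 0.42 within batch 1 and 0.25 within batch 2. At 14 days the log2 fold change was 0.17 (adjusted *P* = 0.849, limma).

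In the PH, *Nfkbiz* was 164, 146, 146 and 203 in intact mice, 129 to 202 (median 160) at 14 days and 126 to 208 (median 154) at 4 months. Of the 4-month libraries, 2 of 6 lay above the highest intact one and 3 of 6 below the lowest, and the fold change at 4 months was -0.01 on the log2 scale (adjusted *P* = 0.995, limma). The change in the PH minus that in the POA was -0.36 (adjusted *P* = 1.00, limma), so that a difference between regions was not shown for *Nfkbiz*.

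*Tnfaip3* (chr10:18874201-18891405, minus strand) encodes A20, a ubiquitin-editing enzyme that stops signaling from the TNF receptor to the IκB kinase complex. In the POA its normalized expression was 140, 167, 144, 152 and 163 in intact mice, 149 to 189 (median 161) at 14 days and 142 to 280 (median 189) at 4 months. Of the 4-month libraries, 5 of 6 lay above the highest intact one, with replicate 1 the highest, and replicate 6 lay among the intact ones at 142. At 4 months the log2 fold change of *Tnfaip3* was 0.32 ± 0.12 (SE; 95% confidence interval 0.06 to 0.57, a fold of 1.25; adjusted *P* = 0.456, limma; exact permutation *P* = 0.0303). It was 0.54 within batch 1 and 0.17 within batch 2. Without intact replicate 1, the log2 fold change was 0.25 and its unadjusted *P* was no longer under 0.05 in limma.

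Between 14 days and 4 months, the log2 fold change of *Tnfaip3* in the POA was 0.26 (adjusted *P* = 0.964, limma; exact permutation *P* = 0.0758). Without the 4-month replicate 1 it was 0.18, no longer under the unadjusted threshold in limma. In the PH, *Tnfaip3* was 147, 146, 308 and 154 in intact mice, 138 to 342 (median 154) at 14 days and 148 to 193 (median 171) at 4 months. Apart from intact replicate 3 (308) and 14-day replicate 5 (342), every PH library lay at or below 193. The PH change at 4 months was -0.03 on the log2 scale (adjusted *P* = 0.990, limma), and 0.27 without intact replicate 3. The change in the PH minus that in the POA was -0.35 (adjusted *P* = 1.00, limma). Summed levels of the microglia markers in the POA were 17572 to 21565 at 4 months and 16761 to 18087 in intact mice, and those of the endothelial markers 16261 to 20535 and 16309 to 16581. Those of the red cell markers were 12960 to 26131 and 10678 to 19899, and those of the mural markers 9112 to 11896 and 8455 to 10168. Of these lists, limma called 1 microglia marker, higher at 4 months in the POA (adjusted *P* = 0.0428). The part of these lists in the values of *Nfkbiz* and *Tnfaip3* was not tested.

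In the POA at 4 months, the 4 genes with a κB match in the promoter had log2 fold changes of 0.32 (*Tnfaip3*), 0.06 (*Nfkbia*), 0.06 (*Nfkb2*) and -0.04 (*Nfkbie*). Those without one had 0.07 (*Rela*) and 0.01 (*Tnfrsf1a*). The directions of the 10 genes within batch 1 and batch 2 were the same for 8 genes in the POA and 2 in the PH at 4 months. At 14 days they were the same for 6 and 3. The share over all genes was not computed, so nothing about the set is read from these counts.

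A further 4 lists of pathway genes were described beside the set: 28 ligands, receptors and adaptors, 23 kinases and ubiquitin regulators, 14 other members of the NF-κB and IκB families and of the feedback genes, and 30 target genes. None of their genes passed an adjusted *P* of 0.05 against intact mice in limma, and the counts that follow are at an unadjusted *P* of 0.05. Over all genes at 4 months, 2.95% of PH genes were higher and 3.12% lower at this threshold, beside 4.1% higher and 4.4% lower of POA genes. After 14 days, 1.57% of all PH genes and 2.84% of all POA genes were higher. Among ligands, receptors and adaptors, 2 of 25 tested were higher and 1 lower at 4 months in the PH, and 2 of 26 were higher in POA tissue. *Irak2*, a kinase downstream of IL-1 and Toll-like receptors, had 639 to 779 in intact PH and 791 to 1033 at 4 months (log2 fold change 0.37, adjusted *P* = 0.406, limma), with no overlap, a pattern met by 0.555% of all PH genes. *Tlr3*, a sensor of double-stranded RNA, had a log2 fold change of 0.28 in the POA (adjusted *P* = 0.335, limma). At 14 days, 2 were higher in the PH, among them *Traf1* (0.63, adjusted *P* = 1.00, limma), a TNF receptor adaptor, and 3 in the POA.

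Among kinases and ubiquitin regulators, 1 of 23 was lower at 4 months in each region and none higher. *Chuk*, which encodes IKKα, the partner of IKKβ, was 1519 to 1755 in intact PH and 1258 to 1640 at 4 months (log2 fold change -0.27, adjusted *P* = 0.617, limma). In the POA it was *Map3k7*, which encodes TAK1 (-0.13, adjusted *P* = 0.525, limma). Among other family and feedback genes, 0 of 14 differed in the PH at 4 months, and in the POA 3 were higher and 1 lower. *Bcl3*, which encodes a nuclear IκB protein, had a log2 fold change of 0.52 there (48.0 to 66.1 in intact mice, 54.4 to 121 at 4 months, adjusted *P* = 0.342, limma). *Zc3h12a*, which encodes the RNase Regnase-1, had 0.32 (88.3 to 138 and 128 to 152, adjusted *P* = 0.361, limma).

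Among target genes, 5 of 23 tested were higher and 2 lower in the PH at 4 months, and 7 of 22 were higher and 1 lower in the POA. Their median log2 fold change was 0.13 (PH) and 0.12 (POA), beside -0.01 over all genes. *Icam1*, an adhesion molecule of endothelium and microglia, was 98.9 to 129 in intact PH and 138 to 212 at 4 months (log2 fold change 0.57, adjusted *P* = 0.348, limma), with no overlap, as for 0.555% of all PH genes. It was named as the gene with the smallest *P* of the list. *Irf1*, an interferon-regulated transcription factor, was 211 to 294 and 304 to 654 (0.64, adjusted *P* = 0.591, limma). In the POA, *Csf1*, a growth factor of microglia, was 951 to 1396 in intact mice and 1242 to 1519 at 4 months (0.33, adjusted *P* = 0.134, limma). *Ptgs2*, the inducible cyclooxygenase, was 57.1 to 98.9 and 99.2 to 192 (0.78, adjusted *P* = 0.200, limma). At 14 days, 0 of the target genes differed at this threshold in the PH and 2 were higher in the POA. All 13 microglia markers had fold changes above 0 at 4 months in both regions, and 8 (PH) and 9 (POA) passed the unadjusted threshold. Limma called 1 of them in the POA (adjusted *P* = 0.0428) and 0 in the PH. Of the red cell markers, 6 of 7 were higher at that threshold in each region (median log2 fold change 1.36 for the PH and 0.85 for the POA). Fold changes were also above 0 for 9 of 9 (PH) and 8 of 9 (POA) mural markers and for 9 of 12 endothelial markers in each region. Over all genes tested, 47.2% (PH) and 46.5% (POA) of fold changes were above 0. Neuron markers were below 0 for 7 of 10 (PH) and 8 of 10 (POA). Oligodendrocyte markers were so for 7 of 10 and choroid plexus markers for 6 of 7 in each region. Border macrophage markers were below 0 for 6 of 7 (PH) and 2 of 7 (POA), and astrocyte markers for 5 of 10 and 6 of 10. Tested pituitary markers were so for 5 of 5 and 4 of 5, and tested leukocyte markers for 1 of 5 and 3 of 5. The part of these lists in the counts of target genes was not tested.

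**Figure D5:**
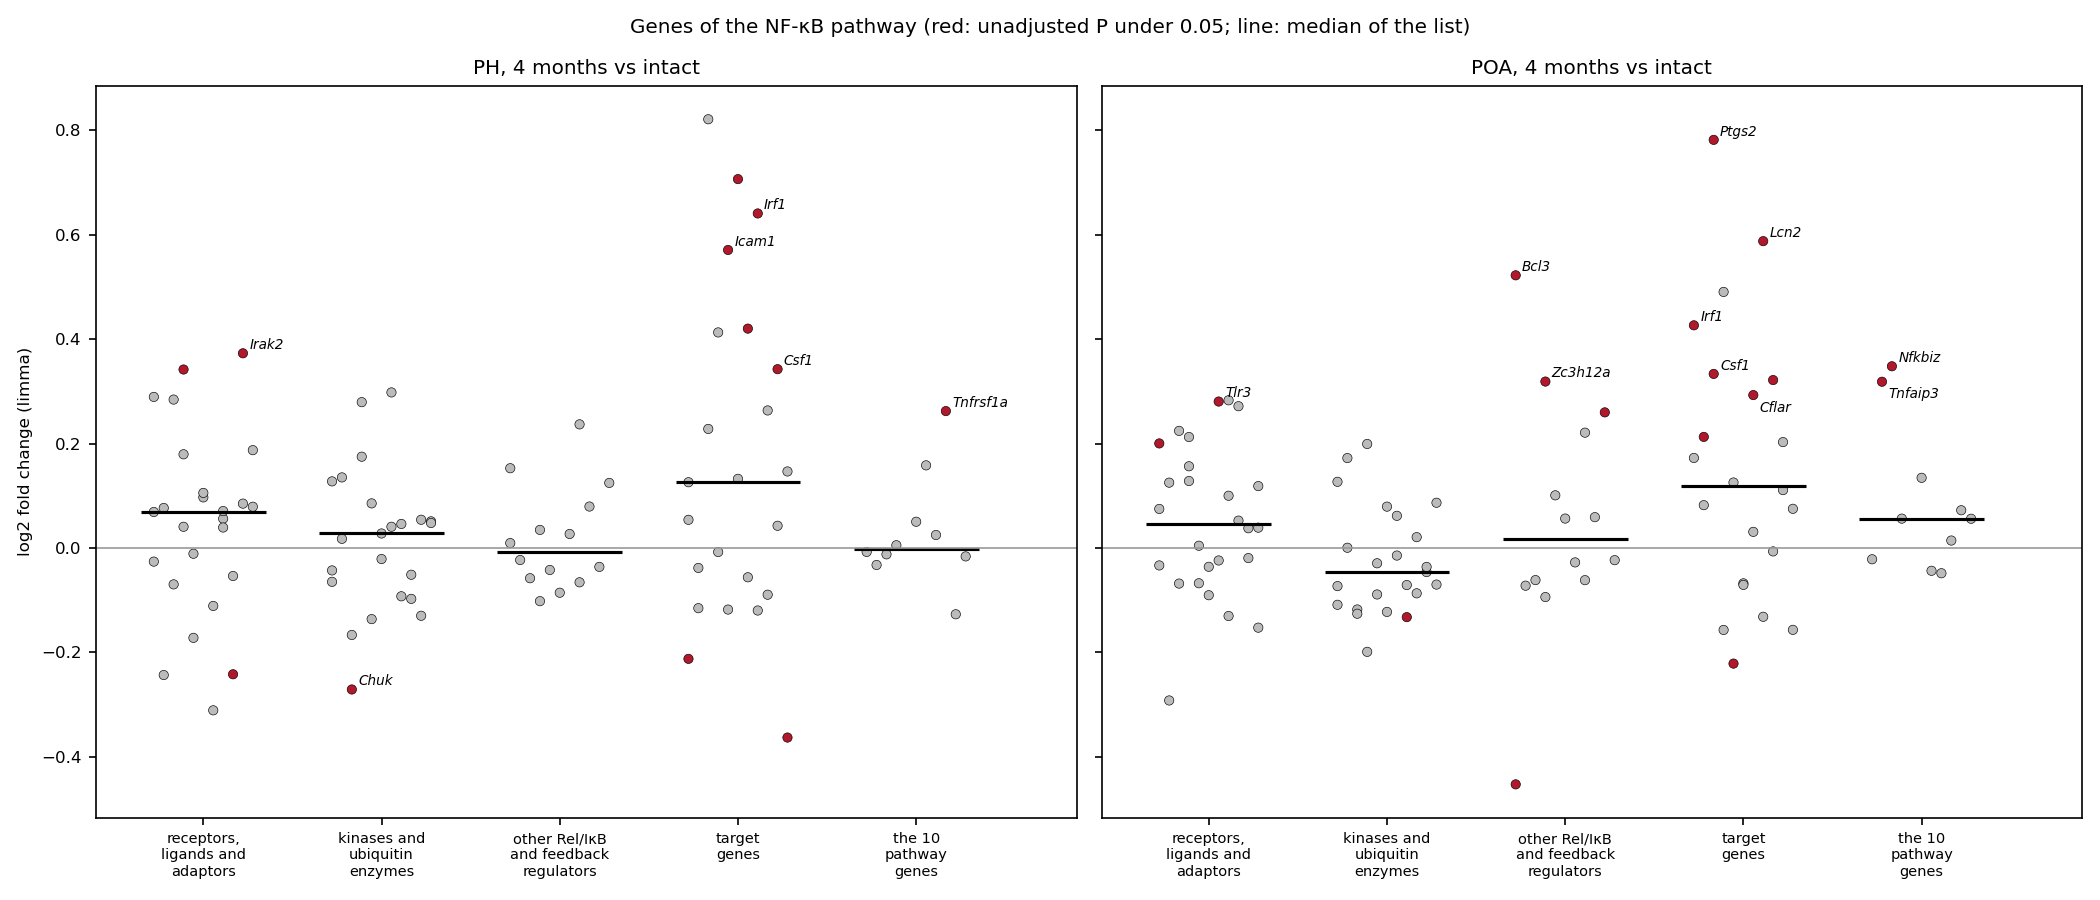
Log2 fold change at 4 months after OVX against intact mice for each gene of the set and of the 4 further lists, in the PH and the POA, with the median of each list as a line and unadjusted *P* under 0.05 in red. The medians of the target genes lie at 0.13 and 0.12, and no gene passed the adjusted threshold.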

How the data were processed

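RNA was taken from PH and POA tissue, and stranded poly(A) libraries were sequenced. Per the study's methods and the submitters' processing notes, the authors used kallisto, tximport and DESeq2 with mm39, and SV1 from smartSVA as a covariate of their own tests. The deposited signal per gene is normalized expression on a linear scale, and the step that made it is not given in the sources used here. The deposited signal is not counts, so no count test was run. Of 42824 entries, 1259 without a name were left out. Genes at 2 times the floor (22.1) or more in at least 4 PH or 5 POA libraries were tested (21998 and 21366, and 22141 for the difference between regions). Log2 values, with no pseudocount, were fitted with limma 3.58.1 (trend and robust variance, statmod 1.5.0, R 4.3.3), with the 3 groups of a region and SV1, which was estimated from the log2 values by iteratively reweighted surrogate variable analysis (5 rounds). SV1 stands in for unknown sources of spread, so values with and without it can differ. Adjusted *P* values cover all genes tested. Same-numbered POA libraries of 14 days and 4 months deviated together from their group means in 6 of 6 pairs (correlation 0.19 to 0.32). The libraries of each such pair also share a batch, and group means were taken over both batches. Pairing and batch therefore cannot be told apart here. The code was tested on simulated data. Exact permutation tests were added after the data were seen. Correlations used 100000 permutations, two-sided (Python 3.11.15, scipy 1.17.1, numpy 2.4.6, pandas 2.3.3, matplotlib 3.10.9). For 1 POA library labelled with the number 14 only, the time came from its title. The genes, the pathway lists and the markers were chosen with earlier results of these data known. Genes named from a pathway list were those with the smallest *P* in it. Alternatives were another covariate, the batch, a replicate block, a pseudocount of 32, no filter, centering, only the groups compared, and each library left out in turn. No libraries were duplicates (highest r between libraries 0.994). By GRCm39 annotation, 7 of the 10 genes overlap a gene on the other strand, and 1 overlaps one on the same strand. How strand entered the quantification is not given in the sources used here.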

Additional observations from a re-analysis of the deposited data

Results flagged for a closer look

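Libraries far from the others of their group were found by Dixon's criterion in 8 of 60 groups examined (10 genes in 6 groups), where chance flags about 1 in 20 groups. In the PH at 14 days, replicate 5, the library with the outlying SV1, was lowest for *Nfkb1* (687) and highest for *Tnfaip3* (342). In intact PH, replicate 3 was highest for *Tnfaip3* (308). In the PH at 4 months, replicate 6 was highest for *Nfkb1* (1321) and replicate 4 for *Tnfrsf1a* (656). In the POA, intact replicate 1 was lowest for *Nfkb2* (123), 14-day replicate 5 highest for *Rela* (1100) and 14-day replicate 6 highest for *Nfkbia* (884). All values are normalized expression.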

How the results depend on the processing

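The count of called genes of the set was 0 in each of the 8 comparisons under 8 alternative settings and with each library left out, 229 alternatives in all. The smallest adjusted *P* over these was 0.165, in the POA at 4 months with SV1 and batch as covariates (limma). In the PH at 4 months *Tnfrsf1a* kept an unadjusted *P* under 0.05 in 8 of 8 settings and with each of 16 libraries left out, and so did *Nfkbiz* in the POA in 8 of 8 and 17 of 17. *Tnfaip3* did so in 8 of 8 settings and 16 of 17 leave-outs, and *Nfkbia* between 4 months and 14 days in the POA in 7 of 8 and 13 of 17, the exceptions being the fit with no covariate and those without 14-day replicate 4 or 5 or 4-month replicate 3 or 4. With between 4 and 6 libraries a group, differences smaller than the intervals given allow were not detectable, and with the depth unknown no counting error could be set.

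Over all 80 log2 fold changes of the set, 61 of 640 alternative values changed sign, and 103 of 1650 with a library left out. The text reports 45 of them, those of the 10 genes against intact mice and 5 others (*Nfkbia* and *Tnfaip3* between 4 months and 14 days in the POA, and *Tnfrsf1a*, *Nfkbiz* and *Tnfaip3* between the regions). Of 360 alternative values for these 45, 33 changed sign, each for a fold change of at most 0.14 in size, and none of the values was called. The cause was not tested. With batch in place of SV1, the values were -0.0025 for *Ikbkb* (PH 14 d), 0.010 for *Ikbkb* (PH 4 mo), -0.0048 for *Nfkb1* (PH 14 d), -0.045 for *Nfkb2* (PH 14 d), 0.019 for *Nfkbia* (PH 4 mo), 0.0068 for *Nfkbie* (PH 14 d), -0.11 for *Relb* (PH 14 d), -0.0036 for *Tnfrsf1a* (POA 14 d) and -0.0095 for *Tnfrsf1a* (POA 4 mo). With libraries centered on their median, the values were -0.0023 for *Tnfrsf1a* (POA 14 d) and -0.0075 for *Tnfrsf1a* (POA 4 mo). With no covariate, the values were -0.0025 for *Ikbkb* (PH 14 d), 0.010 for *Ikbkb* (PH 4 mo), -0.0048 for *Nfkb1* (PH 14 d), -0.045 for *Nfkb2* (PH 14 d), -0.0052 for *Nfkb2* (POA 4 mo), 0.019 for *Nfkbia* (PH 4 mo), -0.0052 for *Nfkbia* (POA 4 mo), 0.0068 for *Nfkbie* (PH 14 d), -0.11 for *Relb* (PH 14 d), -0.025 for *Tnfrsf1a* (POA 14 d) and -0.031 for *Tnfrsf1a* (POA 4 mo). With only the groups compared, the values were -0.019 for *Nfkb2* (PH 4 mo) and -0.011 for *Tnfrsf1a* (POA 4 mo). With SV1 and batch, the values were 0.020 for *Ikbkb* (POA 4 mo).

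Apart from the POA comparison of 14 days with 4 months, same-numbered libraries did not all deviate together. Correlations were over 0.1 in 9 of 14 PH pairs (lowest -0.18) and 14 of 16 POA pairs, and the other 2 POA pairs (-0.26 and -0.31) held intact replicate 3, which is in batch 2 while the other libraries numbered 3 are in batch 1. In the POA between 4 months and 14 days, the block gave 0.23 for *Nfkbia* and 0.27 for *Tnfaip3*, and it changed no call. With the replicate block and SV1, 0 genes were called in each comparison, and the values that changed sign were 0.022 for *Ikbkb* (POA 4 mo), 0.0046 for *Nfkb1* (POA 4 mo), -0.024 for *Nfkb2* (PH 4 mo), -0.036 for *Nfkbia* (POA 4 mo), 0.090 for *Nfkbiz* (PH 4 mo), 0.0074 for *Rela* (POA 14 d), -0.025 for *Tnfrsf1a* (POA 14 d) and -0.026 for *Tnfrsf1a* (POA 4 mo).

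With each library left out in turn, 56 of 793 values changed sign, in 20 of the 45 fold changes. Their ranges were -0.045 to 0.015 for *Ikbkb* (PH 4 mo), -0.080 to 0.027 for *Ikbkb* (POA 4 mo), -0.0093 to 0.060 for *Nfkb1* (PH 4 mo), -0.015 to 0.052 for *Nfkb1* (POA 14 d), -0.073 to 0.098 for *Nfkb2* (PH 4 mo), -0.024 to 0.15 for *Nfkb2* (POA 4 mo), -0.12 to 0.081 for *Nfkbia* (PH 4 mo), -0.045 to 0.11 for *Nfkbia* (POA 4 mo), -0.15 to 0.046 for *Nfkbie* (PH 14 d), -0.087 to 0.035 for *Nfkbie* (POA 14 d), -0.098 to 0.070 for *Nfkbiz* (PH 14 d), -0.095 to 0.10 for *Nfkbiz* (PH 4 mo), -0.17 to 0.039 for *Rela* (POA 14 d), -0.018 to 0.13 for *Relb* (PH 4 mo), -0.066 to 0.056 for *Relb* (POA 14 d), -0.33 to 0.13 for *Tnfaip3* (PH 14 d), -0.18 to 0.27 for *Tnfaip3* (PH 4 mo), -0.018 to 0.092 for *Tnfaip3* (POA 14 d), -0.050 to 0.10 for *Tnfrsf1a* (POA 14 d) and -0.029 to 0.10 for *Tnfrsf1a* (POA 4 mo). Centering shifted the median over all genes by at most 0.02.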
